A study of Mus musculus with 24 samples.

Results

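The 10 genes described here encode the nuclear machinery that copies, transcribes and controls mitochondrial DNA: *Tfam*, *Polrmt*, *Tfb1m*, *Tfb2m*, *Polg*, *Polg2*, *Lrpprc*, *Nrf1*, *Gabpa* and *Ppargc1b*. They were chosen by symbol from a table of 24532 genes, and all 10 were found in it. RNA-seq libraries were made from the liver, inguinal white adipose tissue (iWAT), gastrocnemius muscle (GM) and hypothalamus of C57BL/6 mice that were 8 weeks old and fed a chow diet. Control mice (Ctrl) were Crif1flox/flox, and liver-specific knockouts (LKO) were Alb-Cre;Crif1flox/flox, so that both genotypes carried the floxed allele and only LKO carried Cre. The albumin promoter drives Cre in hepatocytes, and *Crif1* in the other cells of the liver was not measured separately. Each tissue had 3 Ctrl and 3 LKO libraries, which makes 24 in all. No source used here tells if 1 mouse gave all 4 tissues, and the p-values below measure the spread between these libraries.

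Mitochondrial DNA is transcribed by a dedicated RNA polymerase, with TFAM packaging the DNA and opening the promoters and TFB2M melting them. A separate polymerase, made of a catalytic and an accessory subunit, copies the genome. The mitochondrion encodes none of these proteins, and nuclear factors such as NRF1, the GABP complex and the PGC-1 coactivators are known to adjust their supply to the energy demand of a tissue. CRIF1, the protein removed in LKO hepatocytes, belongs to the mitochondrial ribosome and is needed to make the mitochondrially encoded subunits of oxidative phosphorylation (OxPhos).

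The starts of these genes were searched for the recognition sequences of 2 of the members themselves. RefSeq windows of 300 bases around the transcription start (GRCm38.p6) were matched for 9 of the 10 genes, and the first window of each was searched on both strands for CGCANGCG, the core of the NRF1 motif, and CCGGAAG, an ETS motif of the kind bound by GABPA, whose letters cannot overlap. The first was present in 4 of the 9 windows and the second in 5, and 7 held at least 1 of them. Of 32851 mouse windows of the same length, 8.21% held CGCANGCG, 8.86% held CCGGAAG and 1.5% held both. The 120 bases before the start are shown for both polymerase subunits, of which *Polg2* fell in liver, for *Tfam*, and for *Nrf1* and *Gabpa*, which encode the factors. Capitals mark the motif matches.
Polg, chr7:79466274-79466393, minus strand: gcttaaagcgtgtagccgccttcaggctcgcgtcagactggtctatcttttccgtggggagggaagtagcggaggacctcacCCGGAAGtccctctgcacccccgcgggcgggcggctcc
Polg2, chr11:106779538-106779657, minus strand: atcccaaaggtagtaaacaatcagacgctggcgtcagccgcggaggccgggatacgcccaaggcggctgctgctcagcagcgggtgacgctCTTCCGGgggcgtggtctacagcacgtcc
Tfam, chr10:71238045-71238164, minus strand: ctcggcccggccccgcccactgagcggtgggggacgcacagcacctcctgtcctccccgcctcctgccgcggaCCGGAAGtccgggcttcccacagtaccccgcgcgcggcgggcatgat
Nrf1, chr6:30047868-30047987, plus strand: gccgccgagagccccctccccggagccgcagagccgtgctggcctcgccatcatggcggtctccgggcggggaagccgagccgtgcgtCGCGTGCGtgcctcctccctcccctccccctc
Gabpa, chr16:84835004-84835123, plus strand: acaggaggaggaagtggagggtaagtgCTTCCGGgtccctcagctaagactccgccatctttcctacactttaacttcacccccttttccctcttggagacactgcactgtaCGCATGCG
The ETS match began 38 bases before the start of *Polg* and 29 bases before that of *Polg2*, on opposite strands relative to the gene. *Tfam* had its match 47 bases before the start. *Nrf1* held an NRF1 match in its own window, and *Gabpa* held both motifs. A match is a stretch of letters, and binding was not measured.

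*Crif1*, listed under its official symbol *Gadd45gip1*, was measured first. In liver it stood at 14.6, 12.5 and 13.6 FPKM (a level corrected for both transcript length and library size) in Ctrl and at 5.40, 2.002 and 2.51 FPKM in LKO. It fell by 1.84 on the log2(FPKM + 1) scale (SE 0.269, adjusted p = 0.00357 by limma). LKO replicate 1 kept the most of the transcript, and the 3 LKO livers lay well below the 3 Ctrl livers. No change of *Crif1* passed in the other 3 tissues. Depth ran from 4.45 to 8.09 gigabases per library (median 5.19), and each tissue expressed the markers of its labelled type, except that *Ass1* of the hepatocyte list was listed at only 0.626 to 1.47 FPKM in the livers.

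In liver, of the 10 genes only *Polg2* passed the test at an adjusted p under 0.05, and it was lower in LKO. The test was limma on log2(FPKM + 1), with the Benjamini-Hochberg adjustment over the 10956 genes that reached 1 FPKM in at least 3 of 6 libraries. Among all tested liver genes 43.8% passed, 38.3% higher and 5.49% lower in LKO, so that 1 of 10 was a smaller share than the background. None of the 10 passed with a fold change of at least 1.5 as well, against 27.4% of all genes. The median log2 fold change was 0.29 over the 10 genes and 0.33 over all tested genes.

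**Figure D1:**
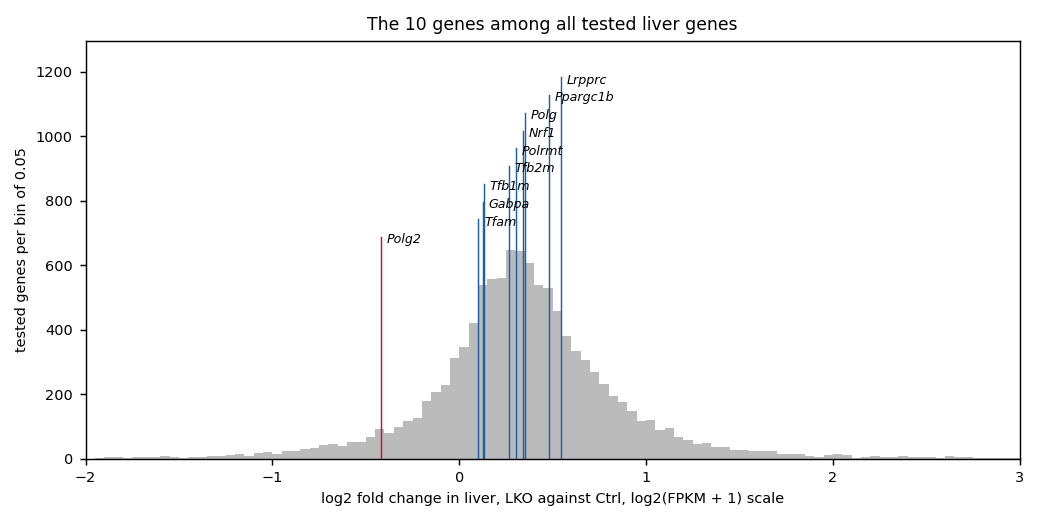
Histogram of the log2 fold change (LKO against Ctrl, log2(FPKM + 1) scale) of all 10956 tested liver genes, in bins of 0.05, with a vertical line for each of the 10 genes at its own value (line height only separates the labels). *Polg2*, in red, lies at -0.42 on the left flank, and the other 9, in blue, lie between 0.10 and 0.54, around the median of all genes at 0.33.

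The FPKM of most liver genes was higher in LKO than in Ctrl, and this shift bears on every liver value below. Scaling each library by the median ratio of its genes moved the median of all liver genes from 0.33 to -0.01. The median-ratio factors were 0.861 to 0.89 in the Ctrl livers and 1, 1.161 and 1.304 in LKO replicates 1, 2 and 3. Relative to the other genes, then, *Polg2* was further down, at -0.72 on the log2 scale after scaling (adjusted p = 0.00696), and the direction of *Tfam*, *Polrmt*, *Tfb1m*, *Tfb2m*, *Polg* and *Gabpa* turned from positive to negative without passing the test. In bulk tissue, fewer cells of a type and less RNA per cell cannot be told apart. FPKM is relative to the whole library, so a rise of most transcripts and a fall of a few abundant ones cannot be told apart either.

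Of the DNA polymerase of mitochondria, *Polg2* encodes the accessory subunit, which holds the enzyme on the template. The gene (chr11:106768204-106779537, minus strand, mm10) was at 4.46, 3.88 and 3.58 FPKM in Ctrl and at 2.88, 2.49 and 2.78 FPKM in LKO livers. All LKO livers were below all Ctrl livers. It fell by 0.42 on the log2(FPKM + 1) scale (SE 0.117, adjusted p = 0.0278), which placed it at percentile 5.95 of the fold changes of all tested genes. The adjusted p rose to 0.0972, 0.0824 and 0.0670 without Ctrl replicates 1, 2 and 3 and to 0.117 without LKO replicate 2. *Polg2* overlaps *Milr1* on the opposite strand over 591 bases in libraries that do not mark strand, and *Milr1* lay between 0.176 and 0.298 FPKM in Ctrl and between 0.434 and 0.642 in LKO livers.

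*Polg* encodes the catalytic subunit of the same enzyme. The gene (chr7:79449383-79466273, minus strand, mm10) was at 10.7, 11.3 and 12.6 FPKM in Ctrl and at 13.2, 16.04 and 15.9 FPKM in LKO livers. All LKO livers were above all Ctrl livers, but the difference of 0.35 (SE 0.121) missed the threshold with an adjusted p of 0.0513. It passed with a pseudocount of 0.1 (adjusted p = 0.0498), among genes with a mean of at least 5 FPKM (0.0483), with the deposited TPM (0.0175) and with all 24 libraries in 1 fit (0.00188). After median-ratio scaling it was -0.02. *Fanci*, which overlaps *Polg* on the opposite strand over 882 bases, did not exceed 0.813 FPKM in any library. Because both genes were read in the same library, their ratio is nearly free of scaling between libraries. The log2 ratio of *Polg2* to *Polg* was -1.34 ± 0.232 (SD, n = 3) in Ctrl and -2.10 ± 0.217 (SD, n = 3) in LKO livers, and the groups did not overlap. In iWAT, GM and hypothalamus the difference in this ratio was -0.14, 0.05 and -0.002, with overlapping groups.

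**Figure D2:**
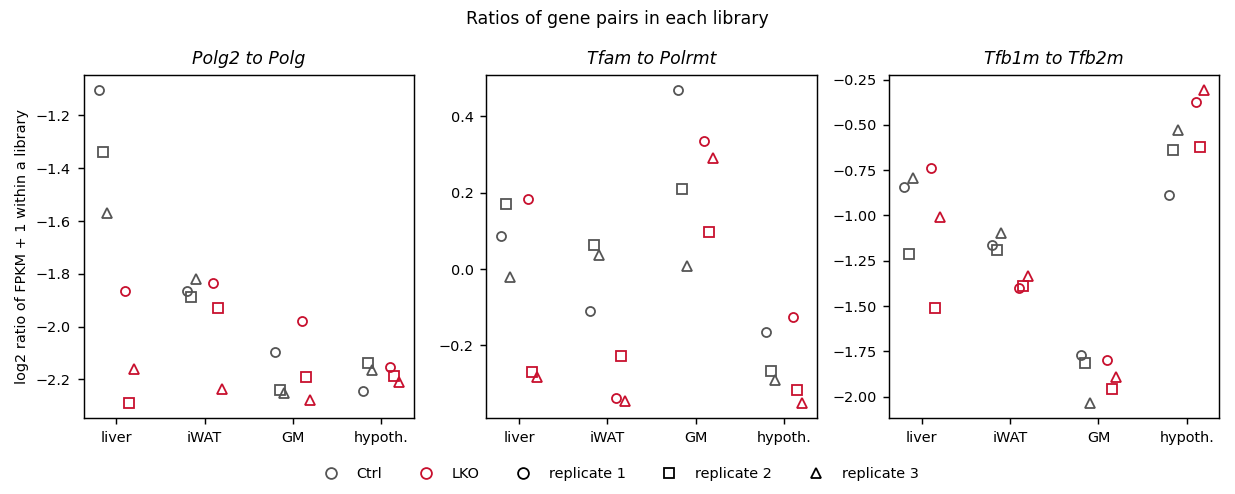
Log2 ratio of FPKM + 1 of *Polg2* to *Polg*, *Tfam* to *Polrmt* and *Tfb1m* to *Tfb2m* in each of the 24 libraries, by tissue, with Ctrl in grey, LKO in red and a symbol for each replicate number. The *Polg2* to *Polg* ratio of the 3 LKO livers lies below that of the 3 Ctrl livers, while in the other 3 tissues the genotypes overlap.

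None of the 4 members of the transcription machinery passed in liver, and their differences lay between 0.10 and 0.31, below the general shift. *Polrmt* (chr10:79736125-79746581, minus strand, mm10), the mitochondrial RNA polymerase, was at 8.60, 7.74 and 9.13 FPKM in Ctrl and 8.38, 11.3 and 12.9 FPKM in LKO livers. LKO replicate 1 lay among the Ctrl livers, and the other two lay above them. The difference was 0.31 (SE 0.162, adjusted p = 0.154 by limma). *Tfb2m* (chr1:179528054-179546276, minus strand), which opens the promoter together with the polymerase, was at 9.81, 9.15 and 9.25 FPKM in Ctrl and 8.79, 13.1 and 13.2 FPKM in LKO, with LKO replicate 1 again apart from the others. Its difference was 0.27 (SE 0.163, adjusted p = 0.204 by limma).

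*Tfam* (chr10:71225477-71238044, minus strand, mm10), the packaging protein and transcription activator of mitochondrial DNA, was at 9.18, 8.84 and 8.99 FPKM in Ctrl and 9.66, 9.22 and 10.4 FPKM in LKO livers. The groups did not overlap, but the difference was 0.10 (SE 0.102, adjusted p = 0.412 by limma). After median-ratio scaling it was -0.26 (adjusted p = 0.0751). *Tfb1m* (chr17:3519256-3557713, minus strand), a methyltransferase of mitochondrial ribosomal RNA related to *Tfb2m*, ranged from 3.38 to 5.04 FPKM in Ctrl and from 3.97 to 6.03 FPKM in LKO. The groups overlapped, with a difference of 0.13 (SE 0.183, adjusted p = 0.565 by limma). *Tiam2*, which overlaps it on the opposite strand over 142 bases, was at 1.07 to 2.83 FPKM in Ctrl and 0.269 to 0.555 FPKM in LKO livers. Of the wider list of mitochondrial transcription genes, 8 of 10 were tested in liver and 0 passed in either direction (38.3% of all genes higher and 5.49% lower), with a median of 0.17 beside 0.33 for all genes.

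*Lrpprc* (chr17:84705247-84790786, minus strand, mm10), whose protein stabilizes mitochondrial messenger RNAs together with SLIRP, varied widely among the LKO livers. Ctrl livers were at 27.8, 26.4 and 27.6 FPKM, and LKO livers at 27.1, 41.9 and 56.9 FPKM. LKO replicate 1 lay within the Ctrl range, while replicate 3 was the highest of all 24 libraries. The difference was 0.54 (SE 0.241, adjusted p = 0.0993 by limma). *Slirp* itself was at 31.9 FPKM (SD 4.18, n = 3) in Ctrl and 38.4 FPKM (SD 1.75, n = 3) in LKO, a difference of 0.27 (adjusted p = 0.103 by limma).

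Among the nuclear regulators, *Nrf1* (chr6:30047988-30153458, plus strand, mm10) encodes a transcription factor of many respiratory and biogenesis genes. It was at 3.09, 3.55 and 3.45 FPKM in Ctrl and 3.64, 4.55 and 5.55 FPKM in LKO livers. The groups did not overlap, and the difference was 0.34 (SE 0.149, adjusted p = 0.0955 by limma). *Gabpa* (chr16:84835124-84863778, plus strand), the DNA-binding subunit of GABP, was at 9.002, 8.54 and 8.53 FPKM in Ctrl and 9.35, 9.28 and 10.1 FPKM in LKO, with no overlap and a difference of 0.13 (SE 0.101, adjusted p = 0.315 by limma). It overlaps *Atp5j* on the opposite strand over 502 bases, and *Atp5j* was at 143 to 367 FPKM over the 24 libraries, far above *Gabpa*. *Ppargc1b*, the coactivator PGC-1β, was close to the detection filter at 0.669, 0.607 and 1.05 FPKM in Ctrl and 0.943, 1.40 and 2.203 FPKM in LKO. Its difference of 0.48 (SE 0.195, adjusted p = 0.0781 by limma) did not pass. In all, 5 of the 10 genes had no overlap between the genotypes in liver, against 61.1% of all tested genes.

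**Figure D3:**
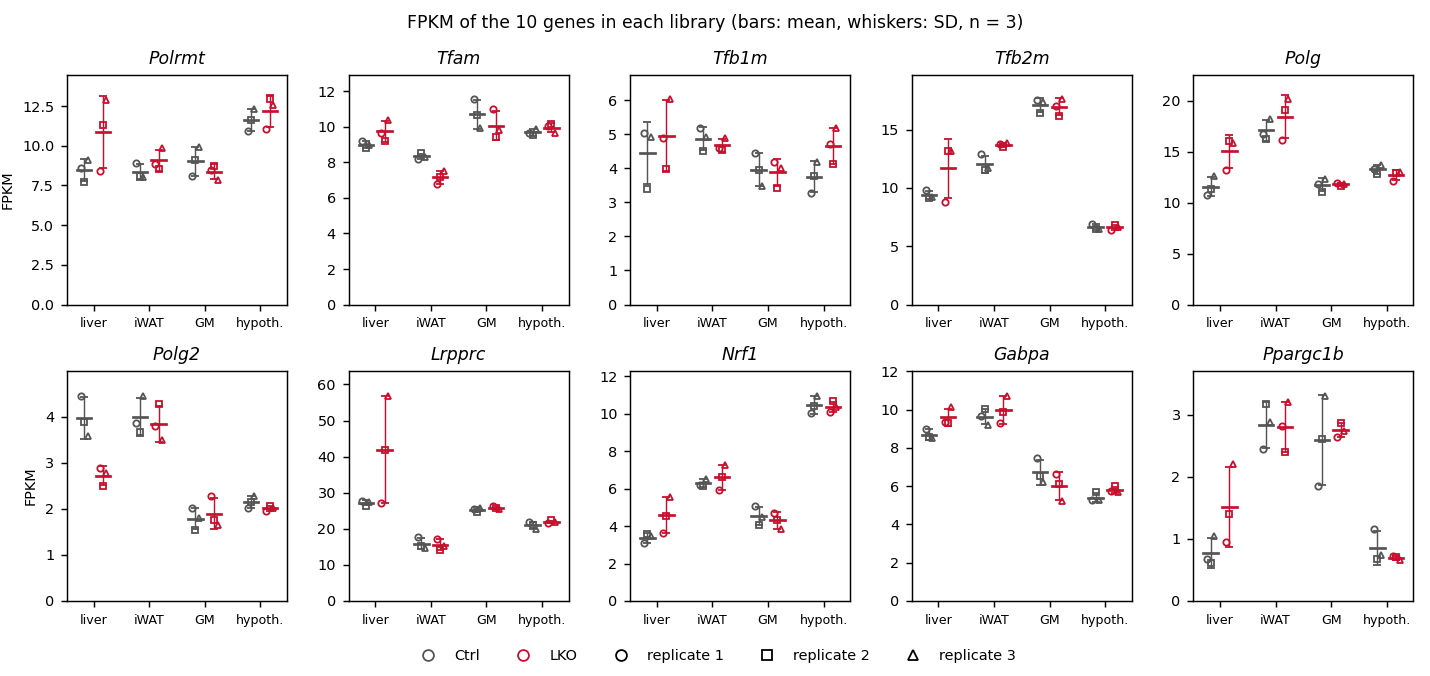
FPKM of each of the 10 genes in every library, by tissue, on axes that start at 0, with Ctrl in grey and LKO in red, horizontal bars for the mean and whiskers for the SD (n = 3). *Polg2* is lower in the 3 LKO livers, *Lrpprc* spreads from 27.1 to 56.9 FPKM among LKO livers, and in iWAT *Tfam* is lower and *Tfb2m* higher in LKO without overlap.

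Without LKO replicate 1, the library with the most *Crif1* left, 7 of the 10 genes passed, 6 higher and 1 lower, while the background rose to 67.4% (58.9% higher and 8.55% lower). The 6 were *Polg*, *Polrmt*, *Tfb2m*, *Nrf1*, *Ppargc1b* and *Lrpprc*. *Lrpprc* then stood at 0.82 (SE 0.133, adjusted p = 0.0011), *Tfb2m* at 0.44 (adjusted p = 0.00418) and *Polg2* at -0.45 (adjusted p = 0.0099) on the log2 scale. With median-ratio scaling and without that library, 4 of 10 passed, 1 higher and 3 lower, against a background of 48.9% (24.3% higher and 24.5% lower). *Tfam* (-0.31, adjusted p = 0.0116) and *Gabpa* (-0.28, adjusted p = 0.0185) were then lower beside *Polg2*. This setting was chosen after the values were seen, as was that of the deposited TPM without LKO replicate 1, in which 8 members and 76.1% of all genes passed. Without Ctrl replicate 1, 2 or 3, or without LKO replicate 2, 0 members of 10, 10, 9 and 9 tested passed, against 21.6%, 17.7%, 17.3% and 13.5% of all genes. With all 6 liver libraries, 2 members passed with a pseudocount of 0.1 (background 44.3%), 5 with the deposited TPM (59.3%), 7 when the variances were estimated from all 24 libraries (63.3%) and 1 with median-ratio scaling (32.2%).

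**Figure D4:**
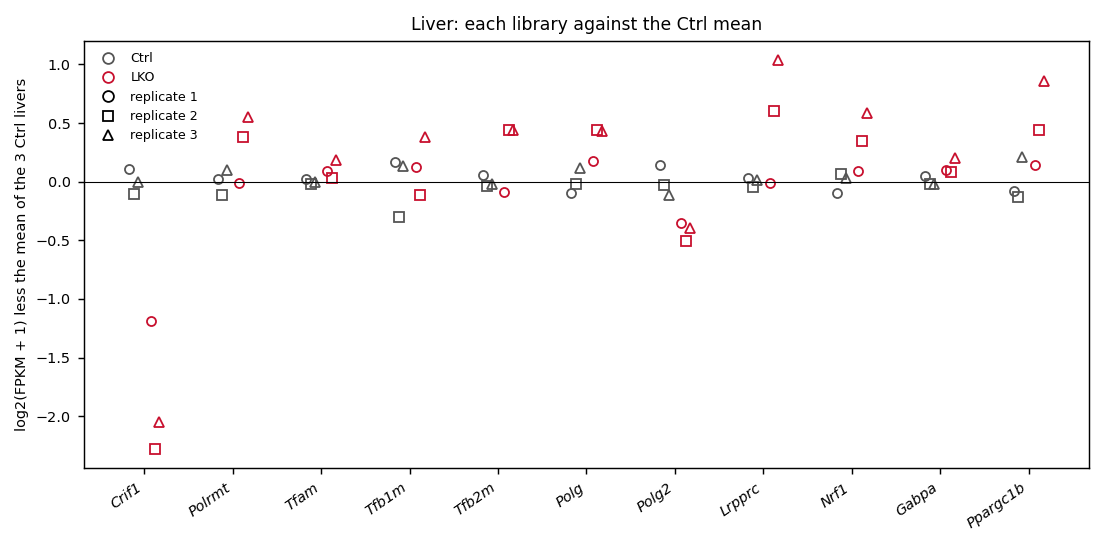
Log2(FPKM + 1) of *Crif1* and the 10 genes in each liver library, less the mean of the 3 Ctrl livers, with Ctrl in grey, LKO in red and a symbol for each replicate number. LKO replicate 1 (red circles) has the smallest loss of *Crif1*. It lies nearest to the Ctrl mean for *Polrmt*, *Tfb2m*, *Polg*, *Polg2*, *Lrpprc*, *Nrf1* and *Ppargc1b*, while LKO replicate 2 does so for *Tfam*, *Gabpa* and, narrowly, *Tfb1m*.

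Other genes of the same processes were compared from lists in liver, all against the backgrounds of 38.3% higher and 5.49% lower. Of the genes of mitochondrial DNA replication and maintenance, 18 were tested, 3 passed higher and 2 lower. *Tymp*, thymidine phosphorylase, was at 83.2 FPKM (SD 7.17, n = 3) in Ctrl and 37.5 FPKM (SD 7.53, n = 3) in LKO and fell by 1.14 on the log2 scale (adjusted p = 0.00263 by limma). *Polg2* was the other gene that fell. *Slc25a33*, a pyrimidine nucleotide carrier, rose by 0.90 (adjusted p = 0.0106 by limma), *Mpv17* by 0.84 (adjusted p = 0.0192) and the nuclease and helicase *Dna2* by 0.43 (adjusted p = 0.0484). After scaling, which left 17% of all genes higher and 15.2% lower, 2 of the list passed higher and 3 lower, and *Dna2* was at 0.12 and did not pass. The call of *Slc25a33* was lost without LKO replicate 2 (adjusted p = 0.0512 by limma). Those of *Mpv17* and *Dna2* were lost without Ctrl replicate 1, 2 or 3 or LKO replicate 2 (adjusted p 0.0547 to 0.0784 and 0.109 to 0.159), and that of *Dna2* also without LKO replicate 3 (0.115). With ordinary variances all 3 missed the threshold (0.0575, 0.0804 and 0.0962), and *Dna2* did so with no filter on low values (0.0806). The helicase *Twnk* (0.31, adjusted p = 0.146) and the single-strand binding protein *Ssbp1* (0.16, adjusted p = 0.28), which work beside the polymerase, did not pass.

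Of the 21 genes of mitochondrial RNA processing and stability, 4 passed higher and 1 lower, with a median of 0.34. *Fastkd2* (0.65, adjusted p = 0.0471 by limma), *Rexo2* (0.58, adjusted p = 0.0391) and *Fastkd3* (0.48, adjusted p = 0.0146) were the largest rises. *Hsd17b10*, a subunit of mitochondrial RNase P, fell by 0.43 (adjusted p = 0.0158 by limma). The calls of *Hsd17b10* (adjusted p 0.0556 to 0.0816) and *Fastkd3* (0.0514 to 0.0616) were lost without Ctrl replicate 1, 2 or 3 or LKO replicate 2, and those of *Fastkd2* (0.0867 to 0.146) and *Rexo2* (0.0855 to 0.122) without any library other than LKO replicate 1. *Fastkd2* and *Rexo2* also missed the threshold with no filter on low values (adjusted p = 0.0777 and 0.0612 by limma) and with ordinary variances (0.127 and 0.112). With median-ratio scaling 0 of the list passed higher and 1 lower, and *Fastkd2*, *Rexo2* and *Fastkd3* were at 0.30, 0.19 and 0.20. Of 21 tested nuclear regulators of biogenesis 7 passed higher and 0 lower, with a median of 0.35, and with scaling 3 passed higher.

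None of those 7 was a member. *Ppargc1a*, the coactivator PGC-1α, went from 1.49 FPKM (SD 0.126, n = 3) in Ctrl to 3.06 FPKM (SD 0.160, n = 3) in LKO livers, a rise of 0.71 on the log2 scale (adjusted p = 0.0034 by limma). *Myc* rose by 2.86 (adjusted p = 0.0131), from 0.943 to 1.65 FPKM in Ctrl to a wide 4.42 to 32.7 FPKM in LKO, and *Nfe2l2* rose by 0.90 (adjusted p = 0.00829). The call of *Myc* was lost without LKO replicate 2 (adjusted p = 0.0572) and with ordinary variances (0.0768), that of *Nfe2l2* with ordinary variances (0.051) and that of *Ppargc1a* with quantile normalization (0.0595). The GABP partner subunits *Gabpb1* (0.58, adjusted p = 0.026) and *Gabpb2* (0.32, adjusted p = 0.0482) rose too. *Gabpb2* was 0.01 after scaling, and *Gabpb1* 0.25, neither passing. Both calls were also lost without any library other than LKO replicate 1 (adjusted p 0.0928 to 0.1685 and 0.0578 to 0.0949), that of *Gabpb2* with no filter on low values (0.0724) and with all 24 libraries in 1 fit (0.315), and that of *Gabpb1* with ordinary variances (0.0757). The third PGC-1 family gene *Pprc1* (0.84, adjusted p = 0.0611) and the nuclear receptor *Esrra* (-0.03, adjusted p = 0.917) did not pass.

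Summed markers of other cell types moved with genotype in the livers. The summed level of the 5 Kupffer cell markers was 93.4 to 97.5 FPKM in Ctrl and 205 to 326 FPKM in LKO livers, and that of the 7 monocyte or macrophage markers 66.7 to 73.1 and 172 to 254 FPKM. From cell sorting, a measure of cells and not of RNA, the authors propose fewer resident Kupffer cells and more infiltrated monocytes in LKO livers. The 5 stellate cell or fibroblast markers summed to 65.5 to 72.4 and 180 to 200 FPKM, the 5 cholangiocyte markers to 30.7 to 31.8 and 41.6 to 88.9 FPKM, and the 5 proliferating cell markers to 1.21 to 2.37 and 24.7 to 58.7 FPKM. The 5 neutrophil markers summed to 1.43 to 2.08 and 9.14 to 11.1 FPKM, with *Ly6g* at 0 in Ctrl. Also without overlap, the 7 lymphocyte markers summed to 1.82 to 2.84 and 2.92 to 3.84 FPKM, the 5 adipocyte markers to 12.9 to 14.4 and 33.4 to 35.6 FPKM and the 6 mammary epithelium markers to 191 to 283 and 667 to 781 FPKM. Of the mammary list, *Krt14*, *Krt5*, *Csn3* and *Wap* were at 0 in Ctrl livers and *Krt14*, *Csn3* and *Wap* in LKO livers. The Ctrl sum was thus that of *Krt8* and *Krt18*, and no cell type is read from this list in liver. The 5 brown or beige adipocyte markers (308 to 455 and 15.8 to 39.6 FPKM) and the 8 neuron markers (2.86 to 3.40 and 1.76 to 2.11 FPKM) were lower in LKO, and the 6 muscle fibre markers overlapped. The brown or beige sum rested mostly on *Elovl3*. *Ucp1* and *Dio2* were at 0 in all livers, *Cidea* was at 0 in Ctrl, and *Cox7a1* was at 3.37 FPKM in Ctrl and 3.49 FPKM in LKO. Of the neuron markers, *Pmch*, *Avp* and *Oxt* were at 0 in all livers and *Snap25* was at 0 in LKO. The sum of the 6 hepatocyte markers overlapped between genotypes (56335 to 59233 and 41623 to 67515 FPKM), as did *Alb*, *Ttr* and *Cps1* among them. *Apoa1* (7105 to 7145 and 2942 to 6164 FPKM) and *Serpina1c* (4807 to 4983 and 1573 to 3365 FPKM) were lower in LKO without overlap, and *Ass1* (0.626 to 0.782 and 0.896 to 1.47 FPKM) was higher. The part of these changes in the liver values was not tested.

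Outside the liver no member passed, and the background was 0% in iWAT, 0% in GM and 0.0217% in hypothalamus. Here 10, 10 and 9 members were tested, *Ppargc1b* being under the filter in hypothalamus. At an unadjusted p under 0.05, limma gave 2 members in iWAT, 0 in GM and 1 in hypothalamus, against 15%, 6.83% and 3.72% of all genes tested. With ordinary variances these counts were 2, 0 and 0, against 13.3%, 6.16% and 4.35%. The lists of related genes had 0 passing genes in each of the 3 tissues.

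The 2 in iWAT were *Tfam* and *Tfb2m*, and they went in opposite directions. *Tfam* was at 8.21, 8.51 and 8.29 FPKM in Ctrl and 6.77, 7.16 and 7.54 FPKM in LKO iWAT, and *Tfb2m* at 12.9, 11.5 and 11.7 FPKM in Ctrl and 13.7, 13.5 and 13.9 FPKM in LKO. In neither gene did the genotypes overlap, as was the case for 20.8% of all genes tested in iWAT. The differences were -0.20 (SE 0.072, adjusted p = 0.277 by limma) and 0.18 (SE 0.071, adjusted p = 0.319). Both values were the same in direction under every alternative run in iWAT. The summed 5 brown or beige adipocyte markers in the same libraries were 51.6 to 283 FPKM in Ctrl and 199 to 423 FPKM in LKO, with overlap. The 6 hepatocyte markers summed to 15.9 to 27.4 and 36.9 to 54.3 FPKM and the 5 neutrophil markers to 4.61 to 7.52 and 9.70 to 20.6 FPKM, both without overlap, and the 6 muscle fibre markers to 62.9 to 592 and 38.4 to 946 FPKM. As a mean of log2(FPKM + 1), the hepatocyte markers overlapped (1.03 to 1.21 and 1.16 to 1.83) and the neutrophil markers did not (0.871 to 1.21 and 1.38 to 1.86). The 5 adipocyte markers, those of the tissue itself, summed to 20903 to 24569 FPKM in Ctrl and 25729 to 27052 FPKM in LKO, without overlap. This sum rested mostly on *Fabp4*, and as a mean of log2 values the same markers overlapped (10.6 to 10.8 and 10.5 to 10.7). Of these markers, *Fabp4* and *Cidec* were higher in LKO and *Lep* was lower, each without overlap, while *Adipoq* overlapped. The 6 mammary epithelium markers summed to 0.0415 to 0.396 and 0.230 to 9.26 FPKM. The part of these markers in both values was not tested.

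The differences in GM and hypothalamus were small. In GM the largest difference was that of *Gabpa* at -0.15 (adjusted p = 0.871 by limma), and the other 9 genes lay between -0.10 and 0.08. In hypothalamus *Tfb1m* was at 3.28, 3.79 and 4.19 FPKM in Ctrl and 4.72, 4.11 and 5.17 FPKM in LKO, with overlapping groups and a difference of 0.25 (SE 0.104, adjusted p = 0.999 by limma). *Gabpa* was the only member without overlap there, at 5.26, 5.67 and 5.26 FPKM in Ctrl and 5.76, 5.98 and 5.69 FPKM in LKO, against 9.7% of all tested genes. In GM all 10 genes overlapped, against 11.6% of tested genes without overlap.

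**Figure D5:**
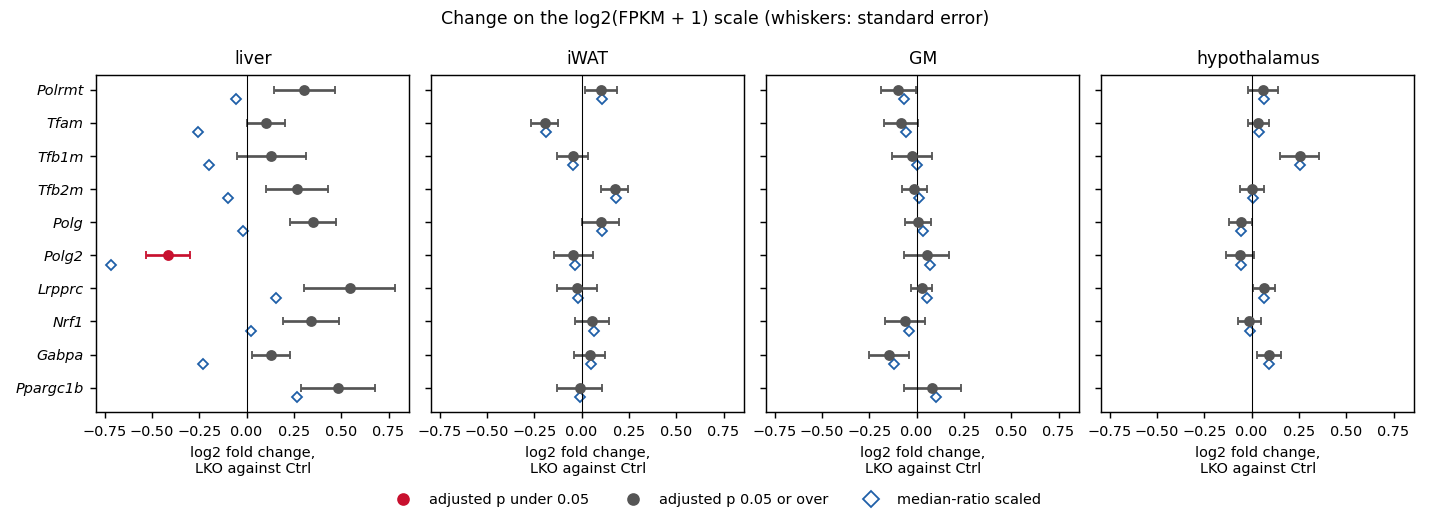
Log2 fold change (LKO against Ctrl, log2(FPKM + 1) scale) of the 10 genes in 4 tissues, with whiskers for the standard error and open blue diamonds for the value after median-ratio scaling. Red marks *Polg2* in liver, the single change that passed, and *Ppargc1b* was not tested in hypothalamus. Scaling moves the liver values to the left by about the general shift and leaves the other tissues almost in place.

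The LKO effect was compared between tissues in 1 fit of all 24 libraries, by an F test on the 3 interaction terms. *Polg2* was the member that passed (adjusted p = 0.0414 by limma), against 33.5% of all genes tested. This call was lost with a pseudocount of 0.1 (adjusted p = 0.0756), with no filter on low values (0.0513) and on leaving out liver Ctrl replicate 1 or 2 (0.139 and 0.078), liver LKO replicate 2 or 3 (0.129 and 0.0787) or any of 7 libraries of other tissues (iWAT Ctrl 2, GM Ctrl 2 or 3, hypothalamus Ctrl 2 or LKO 1, 2 or 3, 0.0511 to 0.0643). *Polg* had an adjusted p of 0.0501 and *Tfam* of 0.0742. Without the LKO liver replicate 1, 7 of the 10 passed (background 45.2%). Median-ratio scaling gave 3 (23.7%), *Polg2*, *Tfam* and *Gabpa*, the deposited TPM gave 3 (40.7%), without *Polg2*, and quantile normalization 2 (20.3%).

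Between the tissues of Ctrl mice, the 10 genes ranged widely in level. *Nrf1* was highest in hypothalamus at 10.48 FPKM, then 6.30 in iWAT, 4.54 in GM and 3.36 in liver, and each neighbouring pair differed on the FPKM scale (liver minus GM -0.34, adjusted p = 0.00233 by limma). After median-ratio scaling hypothalamus and GM no longer differed beyond their spread in *Nrf1* (-0.17, adjusted p = 0.0621). *Tfb2m* was highest in GM at 17.1 FPKM, then 12.03 in iWAT, 9.41 in liver and 6.62 in hypothalamus, all neighbours differing, and scaling exchanged iWAT and liver. Its 2.15 log2 difference between GM and hypothalamus after median-ratio scaling was the largest of the 10 genes, against 1.25 before. *Ppargc1b* was high in iWAT (2.84 FPKM) and GM (2.59 FPKM), which did not differ beyond their spread, and low in hypothalamus (0.855 FPKM) and liver (0.774 FPKM), which did not differ either. After scaling both pairs differed (iWAT minus GM -0.48, adjusted p = 0.0276).

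*Lrpprc* ran from 27.2 FPKM in liver and 25.3 in GM, which did not differ beyond their spread, to 21.0 in hypothalamus and 15.9 in iWAT. The order held after scaling, but liver and GM then differed (0.24, adjusted p = 0.0173 by limma) and iWAT and hypothalamus did not pass (-0.18, adjusted p = 0.052). *Gabpa* was highest in iWAT (9.64 FPKM) and liver (8.69 FPKM), then GM (6.73 FPKM) and hypothalamus (5.40 FPKM), with iWAT and liver not differing beyond their spread. After scaling *Gabpa* was higher in liver than in iWAT (0.72) and lower in iWAT than in GM (-0.25, adjusted p = 0.0034 by limma). *Polg2* was higher in iWAT (3.996 FPKM) and liver (3.97 FPKM) than in hypothalamus (2.14 FPKM) and GM (1.78 FPKM), and neither pair differed beyond its spread, though after scaling liver exceeded iWAT by 0.76 and GM exceeded hypothalamus by 0.48 (adjusted p = 0.000386 by limma). *Polg* was highest in iWAT at 17.1 FPKM and stood at 13.3, 11.7 and 11.6 FPKM in hypothalamus, GM and liver, where GM differed from neither neighbour beyond its spread. After scaling *Polg* was higher in GM than in hypothalamus (0.77, adjusted p = 2.21e-06 by limma) and iWAT (iWAT minus GM -0.25, adjusted p = 0.0145). *Tfam* (8.34 to 10.7 FPKM), *Polrmt* (8.37 to 11.6 FPKM) and *Tfb1m* (3.75 to 4.87 FPKM) varied less in FPKM, and on this scale, of their neighbouring tissues only hypothalamus and GM differed, in *Polrmt* (GM minus hypothalamus -0.34, adjusted p = 0.00321), a difference that scaling turned to 0.58. After scaling GM also exceeded hypothalamus in *Tfam* (1.04) and *Tfb1m* (0.85, adjusted p = 5.34e-05 by limma), and the range of *Tfam* was no longer small (iWAT minus GM -1.05). The F test over 4 tissues passed for 9 of the 10 genes, all but *Tfb1m* (adjusted p = 0.143), against 99% of all genes, and for 10 with scaling (97.9%). Scaling shifted the tissues against each other. Liver against iWAT turned from -0.74 to 0.03 for *Nrf1* and from -0.53 to 0.36 for *Polg*. It grew from 0.10 to 0.95 for *Tfam*, and *Ppargc1b* stayed lower in liver (-1.12 and -0.57).

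The gene closest to each member in its pattern over the 8 groups was found by the root-mean-square distance between centred log2 means, among 11861 genes. *Nrf1* was closest to *Prpf4b* (0.04), *Polrmt* to *Dnajc11* (0.05), *Polg* to *Ap5m1* (0.06), *Tfam* to *Stard7* (0.07), *Gabpa* to *Oard1* (0.07) and *Tfb1m* to *Cnot1* (0.07). *Tfb2m* was closest to *Znrd1as* (0.06), an antisense gene whose reads the libraries could not tell from those of its partner. *Ppargc1b* was closest to *Mrpl30* (0.10), *Lrpprc* to *Rnf217* (0.12) and *Polg2* to *Ddrgk1* (0.13), which were the largest distances among the 10. The groups compared share their libraries between genes, and no test was made of these distances.

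Ratios between genes that work together overlapped between genotypes in most tissues. In iWAT the log2 ratio of *Tfam* to *Polrmt* differed by -0.30 and that of *Tfb1m* to *Tfb2m* by -0.225 in LKO, both without overlap between genotypes. In hypothalamus the log2 ratio of *Gabpa* to *Nrf1* was 0.10 higher without overlap. With *Polg2* to *Polg* in liver, these were the 4 of 24 ratios (6 pairs in 4 tissues) without overlap. Single genes had none in 61.1% of cases in liver, 20.8% in iWAT and 9.7% in hypothalamus, so nothing is read from this count. *Slirp* to *Lrpprc* and *Ppargc1b* to *Ppargc1a* overlapped in every tissue.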

How the data were processed

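Libraries of RNA from 4 tissues (3 Ctrl and 3 LKO in each) were made with the TruSeq RNA v2 kit, which does not mark strand. The authors deposited FPKM per gene in 1 joined table, and for each library the authors also deposited the coverage, FPKM and TPM of every gene on mm10 with NCBI Gene identifiers. FPKM agreed between both tables for 99.6% to 99.7% of genes. The submitters' processing notes name FastQC 0.11.5, Trimmomatic 0.32, HISAT2 2.0.5, Bowtie2 2.2.6, STAR 2.5.2b and StringTie 1.3.3b without roles. The notes and files give no read counts, so depth was inferred from coverage and FPKM, and counting error is unknown. The deposited values per library held 0 genes on the mitochondrial chromosome, so mitochondrially encoded genes were not analysed here.

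LKO was compared with Ctrl within each tissue by limma (version 3.58.1, R 4.3.3; lmFit and eBayes with trend) on log2(FPKM + 1), for genes of at least 1 FPKM in at least 3 of 6 libraries. A pseudocount of 1 understates the change of low genes. Interactions used all 24 libraries, and control tissues the 12 Ctrl libraries. The members, lists, tests and alternatives were chosen with earlier results of these data known. Named genes were the 10 members, *Crif1*, listed partners, up to 3 rises and 3 falls of each list in liver, and the nearest gene of each member. Scripts were tested on simulated data. Promoter windows came from RefSeq, and none was printed for *Ppargc1b*. Python 3.11.15 with numpy 2.4.6, pandas 2.3.3 and matplotlib 3.10.9 was used. Alternatives were a pseudocount of 0.1, no filter, a mean of at least 5 FPKM, TPM, median-ratio scaling, quantile normalization, ordinary variances, 1 fit of all 24 libraries, a replicate block and leaving out each library, and 2 settings without LKO liver replicate 1 were added after the values were seen.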

Additional observations from a re-analysis of the deposited data

Results flagged for a closer look

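The LKO effect on *Polg2* differed between the 4 tissues by the F test over the interaction contrasts (adjusted p = 0.0414 by limma). The gene was lower in all 3 LKO livers, at -0.42 on the log2 scale, and its difference was -0.04 in iWAT, 0.05 in GM and -0.06 in hypothalamus. Of 30 alternatives 15 kept the adjusted p under the threshold and 15 did not, with a range from 0.000346 with median-ratio scaling to 0.15 with the deposited TPM.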

How the results depend on the processing

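*Polg2* in liver kept its direction under all 16 alternatives and its call under 11, with log2 fold changes from -0.822 to -0.348. The count of members called in liver (1) was 0 with a fold change of at least 1.5, with adjusted or unadjusted p, 2 with a pseudocount of 0.1, 5 with TPM, 7 with all 24 libraries in 1 fit, and, in the settings chosen after seeing the data, 4 with median-ratio scaling and 8 with TPM, both without LKO replicate 1. Leaving out each liver library gave 0 to 7. The interaction count (1) was 3 with TPM, 3 with median-ratio scaling, 2 with quantile normalization and 0 to 7 without single libraries. In the other 3 tissues the count stayed 0 under all 17 alternatives, under which up to 5.25% of all genes were called in iWAT (all 24 libraries in 1 fit), 0.901% in GM and 0.333% in hypothalamus (both at an unadjusted p with a fold of at least 1.5).

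Replicate numbers were not taken to pair the samples: the correlation of same-numbered deviations was 0.15, 0.03 and 0.04 in liver and -0.13 to 0.35 elsewhere. With a replicate block *Polg2* in liver missed the threshold (-0.417, adjusted p = 0.0557) and *Ppargc1b* passed (0.48, adjusted p = 0.0383), which left the count at 1 (35.7% of all genes), and the calls of *Dna2* (adjusted p = 0.0763) and *Gabpb2* (adjusted p = 0.107) were lost, while *Pprc1* passed (adjusted p = 0.0404). The interaction then passed for *Polg* (adjusted p = 0.0248) and not for *Polg2* (adjusted p = 0.0608). Between Ctrl tissues, *Polg* then differed between GM and hypothalamus (GM minus hypothalamus -0.162, adjusted p = 0.0324 by limma, against 0.0569 without the block). Leaving out single libraries gave *Polg2* interaction values of 0.0325 to 0.139. The cause of these changes was not tested.

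Liver log2 fold changes that turned sign with median-ratio scaling were *Tfam* -0.256, *Polg* -0.021, *Polrmt* -0.057, *Tfb1m* -0.197, *Tfb2m* -0.098, *Gabpa* -0.232, *Slirp* -0.12, *Twnk* -0.054, *Ssbp1* -0.209 and *Tefm* -0.085. With quantile normalization these were *Tfam* -0.26, *Polg* -0.033, *Polrmt* -0.062, *Tfb1m* -0.269, *Tfb2m* -0.104, *Nrf1* -0.076, *Gabpa* -0.24, *Ppargc1b* -0.005, *Slirp* -0.033, *Gabpb2* -0.1, *Twnk* -0.062, *Ssbp1* -0.212 and *Tefm* -0.113. With scaling and without LKO replicate 1 they were *Tfam* -0.314, *Tfb1m* -0.253, *Gabpa* -0.28, *Slirp* -0.202, *Gabpb2* -0.073, *Ssbp1* -0.249 and *Tefm* -0.056. Both scalings remove the upward shift of the median liver gene by construction. *Esrra* was 0.085 with TPM and 0.345 with TPM and without LKO replicate 1.

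Without single libraries, liver values ran from -0.019 to 0.254 for *Tfb1m* and from -0.259 to 0.215 for *Esrra*. In iWAT they ran from -0.104 to 0.023 for *Polg2*, -0.004 to 0.124 for *Nrf1*, -0.008 to 0.086 for *Gabpa*, -0.086 to 0.068 for *Ppargc1b* and -0.097 to 0.051 for *Lrpprc*. In GM the ranges were -0.032 to 0.04 for *Polg*, -0.041 to 0.116 for *Polg2*, -0.094 to 0.045 for *Tfb1m*, -0.042 to 0.018 for *Tfb2m*, -0.123 to 0.005 for *Nrf1* and -0.072 to 0.225 for *Ppargc1b*. In hypothalamus they were -0.017 to 0.032 for *Tfb2m* and -0.04 to 0.019 for *Nrf1*. Values near 0 also turned with TPM (iWAT *Ppargc1b* 0.012 and *Lrpprc* 0.004, hypothalamus *Nrf1* 0.009), with quantile normalization (iWAT *Lrpprc* 0.003, GM *Tfb2m* 0.017) and with scaling (GM *Tfb2m* 0.015). Of all values that turned sign, *Tfam*, *Gabpa* and *Ssbp1* (adjusted p = 0.0116, 0.0185 and 0.0431) passed the test, each with scaling and without LKO replicate 1. Read counts per gene are unknown, so genes such as *Ppargc1b*, near 1 FPKM, carry an unknown counting error.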
